A study of Mus musculus with 4 samples.

Results

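The genes described here are those of the mouse major histocompatibility complex (MHC, called H2 in the mouse) and of the machinery that prepares peptides for it. They were the rows of the deposited count tables with an H2- name, plus 15 named genes of antigen processing, that had 10 or more raw counts in at least 2 libraries. Of 52 candidate rows 40 met the count rule, out of 21878 rows in all. They comprised 15 class I genes (with B2m), 11 genes of the class I peptide route, 9 class II genes, 3 genes of the class II route and 2 other H2- rows. Of the 12 rows left out, 8 had no count in any library and 4 had a few. H2-Oa, with 8, 6, 13 and 16 counts in HACY replicates 1 and 2 and CCL4 replicates 1 and 2, was just inside the rule, and H2-M1, with 23, 8, 4 and 9, was just outside. H2-Oa and H2-Bl met it through their CCL4 libraries alone, and no gene that met it had 10 or more counts in HACY libraries only. H2-M2, with 62 and 81 counts in HACY and 19 and 5 in CCL4, needed its HACY libraries to meet it.

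The RNA came from liver cells of C57BL/6 mice, sorted on magnetic columns for the surface protein CD24 and labelled as hepatocytes. The age label reads 6 to 8 weeks, and the treatment label gives 8 weeks at injection. CCL4 mice (2 libraries) were injected into the abdomen with carbon tetrachloride, a liver toxin, in olive oil at 2 ml/kg, 2 times a week for 6 weeks. HACY mice (2 libraries) were injected 3 times a week for 6 weeks with a cocktail labelled HACY of Y-27632, an inhibitor of ROCK kinases, A-83-01, which blocks receptor kinases of the TGF-beta family, and CHIR99021, an inhibitor of GSK3. The labels leave unclear whether HACY mice also received carbon tetrachloride, and they list no untreated group. Higher and lower therefore mean HACY relative to CCL4.

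Class I molecules pair a heavy chain with beta-2-microglobulin and show peptides from the cell's own proteins to CD8 T cells. The peptides are cut by the proteasome, pumped into the endoplasmic reticulum by the TAP transporter, trimmed there and loaded. Class II molecules pair an alpha with a beta chain, travel with the invariant chain CD74 to endosomes and show peptides of engulfed proteins to CD4 T cells. Class I is made by nearly all nucleated cells and is raised by interferons, with NLRC5 as its transactivator. Class II, under the transactivator CIITA, is made mainly by dendritic cells, macrophages and B cells, and in liver also by Kupffer cells and sinusoidal endothelium.

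Class I and class II promoters are known for an array of short boxes, so the 250 bases upstream of a RefSeq start site (GRCm38.p6) are shown for 3 class I and 2 class II genes on which the results below turn. H2-K1 and H2-D1 encode the classical heavy chains of this strain, and H2-Q10 a secreted class I protein made in liver. H2-Aa and H2-Eb1 encode class II chains. Capitals mark matches, on either strand, to 5 motifs: CCAAT, the cyclic AMP response element half-site TGACG, a kappaB-like motif (GGG, any 2 bases, TTCCC), an RFX X box core (AG, any base, AAC, any 2 bases, ATG) and an interferon-stimulated response element core (GAAA, any 2 bases, GAAA). The kappaB-like motif was added after the sequences were seen.
H2-K1, chr17:34000348-34000597, minus strand: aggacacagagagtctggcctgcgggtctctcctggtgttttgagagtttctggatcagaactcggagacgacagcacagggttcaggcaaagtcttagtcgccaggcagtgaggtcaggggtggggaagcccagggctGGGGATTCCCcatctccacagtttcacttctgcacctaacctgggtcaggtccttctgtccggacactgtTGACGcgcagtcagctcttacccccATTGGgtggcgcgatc
H2-D1, chr17:35262844-35263093, plus strand: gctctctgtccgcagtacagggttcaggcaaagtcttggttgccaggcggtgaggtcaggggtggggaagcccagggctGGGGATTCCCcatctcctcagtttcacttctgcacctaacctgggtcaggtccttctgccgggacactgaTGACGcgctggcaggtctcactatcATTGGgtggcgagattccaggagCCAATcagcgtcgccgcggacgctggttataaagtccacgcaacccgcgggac
H2-Q10, chr17:35469839-35470088, plus strand: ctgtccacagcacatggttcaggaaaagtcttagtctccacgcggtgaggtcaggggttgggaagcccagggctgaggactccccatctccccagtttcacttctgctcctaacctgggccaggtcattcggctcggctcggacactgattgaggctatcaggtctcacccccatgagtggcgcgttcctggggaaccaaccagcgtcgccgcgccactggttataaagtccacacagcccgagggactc
H2-Aa, chr17:34287824-34288073, minus strand: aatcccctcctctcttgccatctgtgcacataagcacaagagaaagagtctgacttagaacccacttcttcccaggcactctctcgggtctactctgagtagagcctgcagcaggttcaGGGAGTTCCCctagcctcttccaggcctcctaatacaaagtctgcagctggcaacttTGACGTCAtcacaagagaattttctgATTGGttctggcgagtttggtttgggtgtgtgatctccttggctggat
H2-Eb1, chr17:34305617-34305866, plus strand: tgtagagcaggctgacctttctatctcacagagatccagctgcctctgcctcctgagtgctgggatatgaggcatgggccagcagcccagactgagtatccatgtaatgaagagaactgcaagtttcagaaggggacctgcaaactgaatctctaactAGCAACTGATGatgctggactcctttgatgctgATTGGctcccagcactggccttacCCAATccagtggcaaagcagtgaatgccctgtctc
In H2-Aa a pair of TGACG matches on opposite strands overlap, and no other capitals overlap. The windows of H2-K1 and H2-D1 held a kappaB-like, a TGACG and a CCAAT match in the same order, whereas the H2-Q10 window held no match to any of the 5 motifs. H2-Eb1 held an exact match to the X box core string, and H2-Aa did not. Windows of 31 members were searched, the first listed for each. Cd74 was not among them, because member windows on its chromosome were left out of the search. CCAAT occurred in 23 of these 31 and in 33.8% of all 32851 windows, TGACG in 13 and 17.8%, the kappaB-like motif in 7 and 1.53%, the X box core in 4 (H2-Eb1, H2-Eb2, H2-DMb1 and H2-Ob) and 0.715%, and the interferon element core in 3 (B2m, H2-T22 and H2-T23) and 2.98%. Members share ancestry, and the Psmb9 and Tap1 windows overlap on opposite strands, so windows are not independent and some sites count for both genes. A match is a description of letters alone. The search took exact strings, so it passes over variants, and a window without a match may still hold the element. Unmarked stretches that match the interferon element core in part stand in the H2-K1, H2-D1 and H2-Q10 windows.

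Among the 40 members, 18 were higher and 1 was lower in HACY at an adjusted p below 0.05 (edgeR quasi-likelihood test, Benjamini-Hochberg adjustment over 13428 genes). Of all genes tested, 8.19% were higher and 3.54% lower by the same rule. The members' median log2 fold change was 0.51, against -0.01 for all genes tested, and 31 of 40 had a positive value, as had 49.1% of all genes tested. In 30 members both HACY libraries were above both CCL4 libraries and in 5 below, where 30.7% and 30.1% of all genes tested were so. Among these 5, H2-Bl and H2-Oa met the count rule through CCL4 libraries alone, which ties their lower direction to the rule. Both also count among the members with a negative value. H2-M2, which is called higher, would not have met the rule on its CCL4 libraries alone, so its direction is also tied to the rule. By role, 5 of 15 class I genes, 9 of 11 class I route genes, 3 of 9 class II genes and 1 of 3 class II route genes were higher, with medians of 0.39, 0.72, 0.46 and 0.28. These are bulk libraries, in which more cells of a type and more RNA per cell cannot be told apart. Whether each library is a separate animal is not in the labels, so the p-values reflect only the spread between these libraries, which may be technical.

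**Figure D1:**
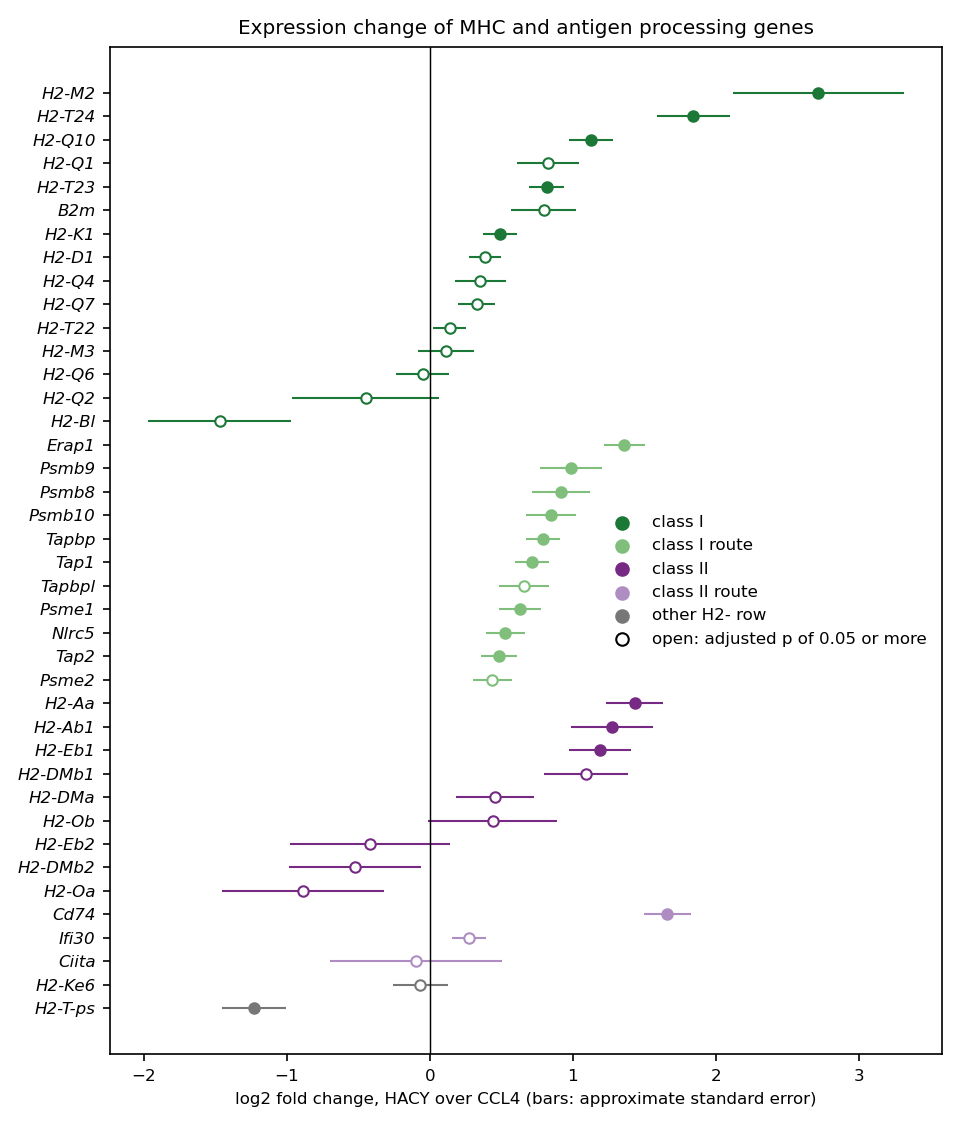
Log2 fold change (HACY over CCL4) of the 40 members by role, with approximate standard errors as bars; filled points had an edgeR adjusted p below 0.05. All 11 class I route genes lie to the right of 0, while class I genes run from H2-Bl at -1.47 to H2-M2 at 2.72. H2-Bl met the count rule through CCL4 libraries alone, and H2-M2 needed its HACY libraries to meet it.

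Of the genes of the classical class I molecule, H2-K1 was called and H2-D1 and B2m were not, with both HACY libraries above both CCL4 libraries in each. B2m, the light chain shared by class I molecules (chromosome 2, 122147686 to 122153083, GRCm38), was among the most abundant transcripts of these cells. By deposited FPKM, which is scaled to transcript length, it had 4057 and 3564 in HACY and 2969 and 1907 in CCL4. It ranked 4 and 5 among all rows in HACY and 4 and 11 in CCL4. On the scale of TMM-scaled CPM (counts scaled to library size and composition), B2m had 3145 and 2919 in HACY replicates 1 and 2 and 2175 and 1317 in CCL4 replicates 1 and 2. Both HACY libraries were above both CCL4 libraries, and CCL4 replicate 2 stood well below CCL4 replicate 1. On the log2 scale HACY was higher by 0.80 (SE 0.23, edgeR adjusted p = 0.0655). B2m passed the threshold in DESeq2 (0.79, adjusted p = 0.00359) and without CCL4 replicate 1 (1.20, edgeR adjusted p = 0.0129).

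H2-K1 (chromosome 17, 33996017 to 34000347, minus strand), a classical heavy chain, had 1566 and 1637 CPM in HACY and 1186 and 1088 in CCL4. The groups did not overlap, and the rise was 1.41-fold (log2 0.49, SE 0.12, edgeR adjusted p = 0.0402). That call was lost without any one of the 4 libraries (log2 0.43 to 0.56, adjusted p = 0.0656 to 0.237), and also under upper-quartile scaling (0.0627), library size scaling (0.0930) and limma on FPKM (0.0926). H2-D1 (chromosome 17, 35262730 to 35267499), the other classical chain, had 1560 and 1551 CPM in HACY and 1182 and 1197 in CCL4. Its replicates lay close together, and its change of 0.39 (SE 0.11, edgeR adjusted p = 0.0709) was not called. Raw counts of H2-K1 and H2-D1 together came to 0.994 and 1.09 per B2m count in HACY and to 1.09 and 1.73 in CCL4. The value of CCL4 replicate 2 stood above the other 3, and the heavy chains differed between the CCL4 libraries less than B2m did.

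**Figure D2:**
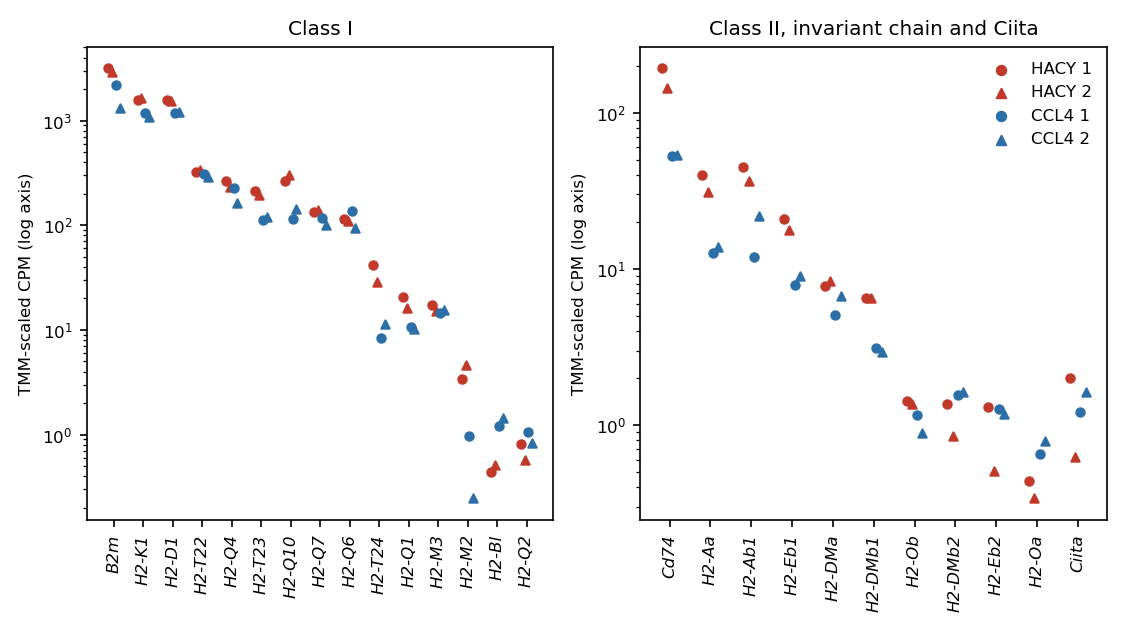
TMM-scaled CPM (log axis) of class I genes (left) and of class II genes, Cd74 and Ciita (right) in each of the 4 libraries; circles are replicate 1 and triangles replicate 2. HACY points of Cd74, H2-Aa, H2-Ab1 and H2-Eb1 lie above their CCL4 points, and those of Ciita lie on both sides.

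The nonclassical class I genes moved unequally. H2-Q10, the secreted liver class I protein (chromosome 17, 35470089 to 35474563), had 264 and 300 CPM in HACY and 114 and 144 in CCL4. This was a rise of 2.18-fold (log2 1.13, SE 0.15, edgeR adjusted p = 0.00590), called under all 13 alternative settings. Hepatocyte markers were also higher: 5 of 8 rose and none fell, and their summed level was 31615 and 40366 CPM in HACY and 11411 and 10390 in CCL4. Per 100 CPM of hepatocyte markers H2-Q10 had 0.836 and 0.742 CPM in HACY and 1.00 and 1.39 in CCL4, and without albumin, which dominates the sum, 3.47 and 2.99 against 2.57 and 2.95. The order of the groups thus depended on albumin, and the part of hepatocyte RNA in the H2-Q10 rise was not tested.

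H2-T23, which encodes Qa-1, a ligand of the NKG2A receptor of NK and T cells (chromosome 17, 36029773 to 36032855), had 212 and 195 CPM in HACY and 111 and 119 in CCL4. The groups did not overlap (log2 0.82, SE 0.12, edgeR adjusted p = 0.00844), and dropping HACY replicate 1 ended the call (0.75, adjusted p = 0.0592). H2-T24 (chromosome 17, 36005695 to 36020560) had 41.8 and 28.6 CPM in HACY and 8.29 and 11.3 in CCL4, a rise of 3.59-fold (log2 1.84, SE 0.26, edgeR adjusted p = 0.00653), called under every alternative. H2-M2 (chromosome 17, 37480851 to 37483552) was scarce, with 62 and 81 raw counts in HACY and 19 and 5 in CCL4. H2-M2 was higher by 2.72 on the log2 scale (SE 0.60, edgeR adjusted p = 0.0308), by 2.05 to 3.98 with 1 library left out and by 0.87 on log2(FPKM + 1), which shrinks scarce genes. Dropping HACY replicate 2 ended the H2-M2 call (adjusted p = 0.100).

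The other class I genes, abundant or scarce, were not called. H2-T22, a ligand of gamma delta T cells, had 324 and 335 CPM in HACY and 308 and 290 in CCL4 (log2 0.14). H2-Q6 had 114 and 110 CPM in HACY and 138 and 94.0 in CCL4 (-0.05), so that the CCL4 libraries lay on both sides of the HACY ones. H2-Q4 (0.35), H2-Q7 of the Qa-2 group (0.33) and H2-Q1 (0.83, edgeR adjusted p = 0.0529) each had both HACY libraries above both CCL4 libraries. H2-Q1 was called in DESeq2 (adjusted p = 0.0281) and by edgeR with no count filter (0.0405), and H2-Q4 without CCL4 replicate 1 (0.62, edgeR adjusted p = 0.0427). H2-M3, which presents formylated bacterial peptides, had 17.3 and 15.1 CPM in HACY and 14.6 and 15.4 in CCL4 (0.11). The signs of H2-M3 and H2-T22 turned under scaling to library size alone (-0.06 and -0.03), and that of H2-Q6 turned without CCL4 replicate 1 (0.25). H2-Q2 and H2-Bl stayed under 1.5 CPM in every library, with values of -0.45 and -1.47. H2-Bl is annotated as a polymorphic pseudogene.

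Reads of class I genes are hard to assign, since the genes are near copies. Of 15 class I genes 9 shared over 10% of the 50-base words of their longest GENCODE transcript with another gene. The share was 35.8% for H2-T22 (mostly with H2-T10, not analysed here), 32.0% for H2-Q6, 27.1% for H2-Q7, 19.7% for H2-Q10, 15.0% for H2-T23, 14.3% for H2-D1 and 8.11% for H2-K1. H2-T24 shared 3.23%, H2-M2 1.67% and B2m none. Values of class I genes with many shared words, H2-D1 among them, are therefore uncertain, and by how much was not tested.

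Most genes of the class I route rose. All 11 genes had positive values, from 0.44 to 1.36, and 9 were called. Tap1, a subunit of the peptide pump (chromosome 17, 34187553 to 34197225), had 130 and 131 CPM in HACY and 80.4 and 78.6 in CCL4 (log2 0.72, SE 0.12, edgeR adjusted p = 0.0118). Tap2, its partner (chromosome 17, 34203527 to 34216321), had 78.9 and 81.9 CPM in HACY and 57.5 and 57.4 in CCL4. Its value of 0.49 (SE 0.13, edgeR adjusted p = 0.0492) lay just inside the threshold. Replicates of both pump genes nearly coincided. Tapbp, or tapasin, which tethers class I to the pump (chromosome 17, 33915899 to 33929292), had 277 and 264 CPM in HACY and 162 and 151 in CCL4 (log2 0.79, SE 0.12, edgeR adjusted p = 0.00836).

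Erap1, the aminopeptidase that trims peptides in the endoplasmic reticulum (chromosome 13, 74639568 to 74693201), had the largest fold change of the 11. It had 105 and 103 CPM in HACY and 44.1 and 36.9 in CCL4, a rise of 2.56-fold (log2 1.36, SE 0.14, edgeR adjusted p = 0.00264) that was called under every alternative. Nlrc5, the class I transactivator (chromosome 8, 94434356 to 94527272), had 85.9 and 90.8 CPM in HACY and 65.4 and 57.0 in CCL4 (0.53, SE 0.13, edgeR adjusted p = 0.0470). Tapbpl, a tapasin-related peptide editor, had 0.66 (edgeR adjusted p = 0.0510), with groups that did not overlap, and was called in 4 settings, among them DESeq2 (adjusted p = 0.0371). Dropping HACY replicate 1 ended the calls of Tap1, Tap2 and Nlrc5 (adjusted p = 0.0803, 0.284 and 0.217) and that of Tapbp (0.0505). Dropping HACY replicate 2 ended the same 3 calls of Tap1, Tap2 and Nlrc5 (0.0758, 0.326 and 0.293), and dropping CCL4 replicate 1 that of Tap2 (0.0586). Calls of Tap2 and Nlrc5 also ended in limma-voom, in limma on FPKM and under library size or upper-quartile scaling, and that of Tap2 under RLE scaling and the stricter count filter as well; Tap2 lost its call in 10 of 13 settings. Their fold changes varied little, between 0.43 and 0.63 with 1 library left out.

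The inducible catalytic subunits of the proteasome rose as well. In the immunoproteasome Psmb8, Psmb9 and Psmb10 replace the constitutive Psmb5, Psmb6 and Psmb7, which favours peptides that fit class I. Psmb8 (chromosome 17, 34197721 to 34201454) had 85.5 and 80.0 CPM in HACY and 34.9 and 52.6 in CCL4 (log2 0.92, SE 0.20, edgeR adjusted p = 0.0306). Psmb9 (chromosome 17, 34181987 to 34187764), which shares a divergent promoter region with Tap1, had 23.2 and 18.3 CPM in HACY and 11.2 and 9.75 in CCL4 (0.99, SE 0.22, edgeR adjusted p = 0.0306). Psmb10 (chromosome 8, 105935735 to 105938444) had 46.1 and 38.4 CPM in HACY and 22.1 and 24.8 in CCL4 (0.85, SE 0.17, edgeR adjusted p = 0.0245). In each of the 3 genes the HACY libraries lay above the CCL4 libraries. Dropping HACY replicate 1 ended all 3 calls, as did dropping HACY replicate 2. With 1 library left out, log2 fold changes were 0.65 to 1.25 for Psmb8, 0.80 to 1.15 for Psmb9 and 0.71 to 0.97 for Psmb10. The Psmb8 call also ended in limma on FPKM. Exons of Psmb9 and Tap1 overlap on opposite strands, and the strand setting of the counting is not given in the sources used here.

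None of 5 constitutive proteasome genes (these counterparts, Psme3 and Psme4) was called or had an unadjusted p below 0.05 in edgeR, DESeq2 or limma-voom: Psmb5 had -0.27, Psmb6 0.01 and Psmb7 -0.08 on the log2 scale. Expressed as FPKM ratios, Psmb8 over Psmb5 was 0.597 and 0.576 in HACY and 0.213 and 0.283 in CCL4. Psmb9 over Psmb6 was 0.135 and 0.106 in HACY and 0.0686 and 0.0493 in CCL4. Psmb10 over Psmb7 was 0.155 and 0.136 in HACY and 0.0766 and 0.0838 in CCL4. The ratios were thus 2.39, 2.06 and 1.81 times as high in HACY, with no overlap between groups. By an exact permutation test, two-sided, p was 0.33 for each of the 3 (also 0.33 adjusted over them), the smallest that 2 against 2 libraries allow. Of the PA28 activator, Psme1 rose (0.63, SE 0.15, edgeR adjusted p = 0.0364) and Psme2 had 0.44 (edgeR adjusted p = 0.0826). Dropping HACY replicate 1 (adjusted p = 0.210), HACY replicate 2 (0.108) or CCL4 replicate 1 (0.0545) ended the Psme1 call, and Psme2 shares 59.3% of its words with Psme2b.

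**Figure D3:**
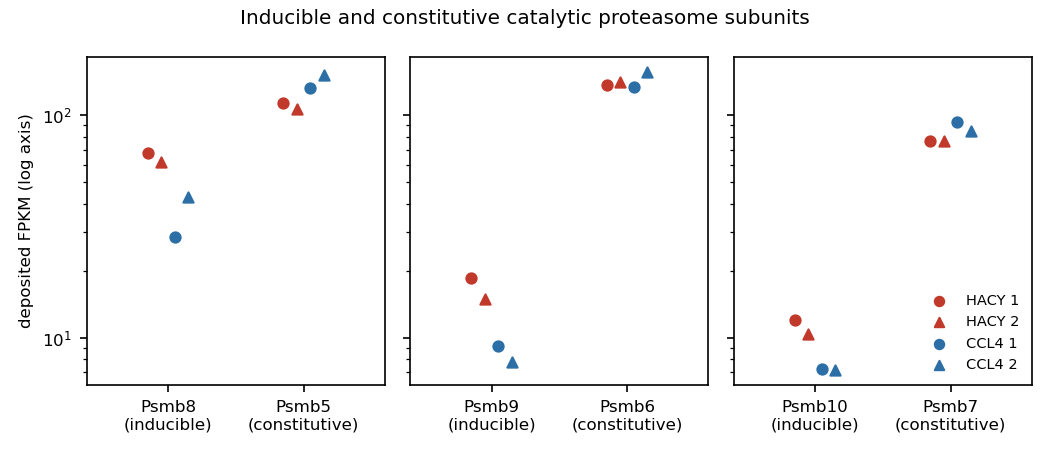
Deposited FPKM (log axis) of each inducible catalytic proteasome subunit and its constitutive counterpart in the 4 libraries. HACY points lie above CCL4 points for Psmb8, Psmb9 and Psmb10, and the constitutive subunits stay close together, with Psmb5 and Psmb7 slightly lower in HACY.

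In class II, the chains that form the surface molecule and the invariant chain rose, while the regulators and accessory chains were scarce and not called. H2-Aa, the I-A alpha chain (chromosome 17, 34282744 to 34287823), had 40.1 and 31.3 CPM in HACY and 12.7 and 13.7 in CCL4 (log2 1.43, SE 0.20, edgeR adjusted p = 0.00620). H2-Ab1, the I-A beta chain (chromosome 17, 34257689 to 34269419), had 45.3 and 36.5 CPM in HACY and 12.0 and 21.8 in CCL4 (1.28, SE 0.29, edgeR adjusted p = 0.0329). H2-Eb1, the I-E beta chain (chromosome 17, 34305867 to 34316674), had 20.9 and 17.7 CPM in HACY and 7.88 and 9.02 in CCL4 (1.19, SE 0.22, edgeR adjusted p = 0.0168). Its alpha partner H2-Ea-ps, which C57BL/6 mice are known not to express, had 0 counts in all 4 libraries, so that a level of up to 3 counts, 0.155 to 0.162 CPM by library, would go unseen.

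Cd74, the invariant chain (chromosome 18, 60803848 to 60812652), had 192 and 144 CPM in HACY and 52.7 and 53.6 in CCL4. The rise was 3.16-fold (log2 1.66, SE 0.16, edgeR adjusted p = 0.00220). H2-Aa and Cd74 kept their calls under every alternative, whereas dropping HACY replicate 1 ended those of H2-Ab1 and H2-Eb1 (adjusted p = 0.116 and 0.127). In all 4 genes HACY replicate 1 was above HACY replicate 2. By FPKM, H2-Ab1 stood at 1.13 and 1.22 times H2-Aa in HACY and 0.897 and 1.57 times in CCL4, and Cd74 at 2.78 and 2.75 times H2-Aa in HACY and 2.22 and 2.19 times in CCL4. Cd74 therefore exceeded H2-Aa by more in both HACY libraries than in either CCL4 library.

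Ciita, the class II transactivator (chromosome 16, 10480059 to 10528418), had 37 and 11 raw counts in HACY and 24 and 33 in CCL4. The 2 HACY libraries enclosed the CCL4 libraries, and its change of -0.10 (SE 0.60, edgeR adjusted p = 0.934) turned to 0.51 without HACY replicate 2 and to 0.13 without CCL4 replicate 2. The HACY replicates of Ciita differed more from each other than the groups did. H2-DMa and H2-DMb1 form the exchange factor that frees class II of the invariant chain peptide. H2-DMb1 had 6.50 and 6.52 CPM in HACY and 3.13 and 2.96 in CCL4 (1.09, SE 0.29, edgeR adjusted p = 0.0544), and passed the threshold without a count filter (edgeR adjusted p = 0.0480) and in limma on FPKM. H2-DMa had 7.81 and 8.40 CPM in HACY and 5.10 and 6.70 in CCL4 (0.46). H2-DMb1 shares 27.2% of its words with H2-DMb2. H2-DMb2, H2-Eb2, H2-Oa and H2-Ob, the last 2 encoding the inhibitor of that exchange factor, had 0.340 to 1.63 CPM and changes of -0.52, -0.42, -0.88 and 0.44. Ifi30, the lysosomal thiol reductase that opens disulfides of engulfed proteins, had 129 and 124 CPM in HACY and 101 and 108 in CCL4 (0.28, edgeR adjusted p = 0.172).

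Class II RNA was far below class I in every library, and less so in both HACY libraries than in either CCL4 library. The 10 class II genes with Cd74 together had 4.14 and 3.31 counts per 100 counts of the 15 class I genes in HACY, and 1.75 and 2.47 in CCL4. The mean difference of the log2 ratio was 0.83, and it was 0.58 to 1.08 with 1 library left out, 0.79 from summed FPKM, 0.80 against H2-K1, H2-D1 and B2m alone and 0.74 without Cd74 and the accessory chains. Being a sum over chosen members, the ratio was given no test.

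Macrophage markers moved with class II. Of 12 markers 11 rose and none fell, among them Adgre1, the F4/80 antigen (2.43, SE 0.20, edgeR adjusted p = 0.00153), and Cd5l (1.62, SE 0.19, edgeR adjusted p = 0.00361). Their summed level was 4128 and 2933 CPM in HACY and 1163 and 1578 in CCL4. No macrophage marker was at 0, and all 12 were higher in HACY replicate 1 than in HACY replicate 2, as were H2-Aa, H2-Ab1, H2-Eb1 and Cd74. That order was not particular to macrophage markers. Summed sinusoidal endothelial (1237 and 940 CPM), dendritic cell (57.0 and 44.0), B cell (37.3 and 30.1) and T and NK cell markers (2.78 and 2.38) had it too. Summed neutrophil, biliary and hepatocyte markers had the reverse order. Per 100 CPM of macrophage markers, the class II genes with Cd74 had 7.69 and 8.44 CPM in HACY and 8.44 and 7.12 in CCL4. On that scale the groups overlapped. Cd74 alone had 4.66 and 4.92 CPM per 100 in HACY and 4.53 and 3.40 in CCL4, so that both HACY libraries were higher. Per 100 CPM of sinusoidal endothelial markers, class II with Cd74 had 25.6 and 26.3 CPM in HACY and 23.4 and 16.2 in CCL4, also higher in both. Per CPM of Adgre1 alone, class II with Cd74 had 2.43 and 2.65 in HACY and 5.18 and 4.96 in CCL4, lower in both. The order of the groups thus depended on the marker used. Class I per 100 macrophage marker CPM was 186 and 255 in HACY and 481 and 288 in CCL4, lower in both HACY libraries. These scalings were chosen after values were seen, and the part of macrophage RNA in the class II rise was not tested.

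**Figure D4:**
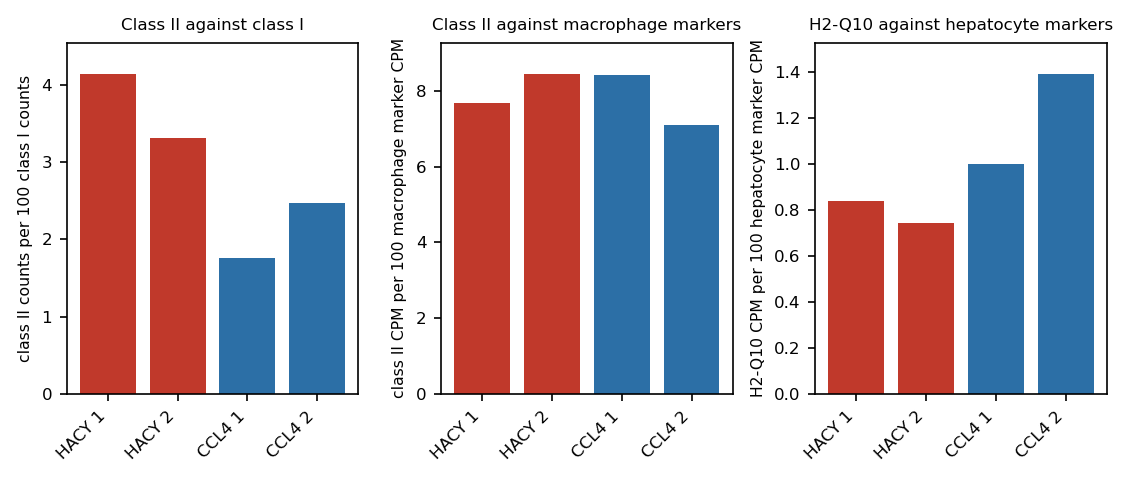
Bars give, for each library, class II counts per 100 class I counts (left), class II CPM per 100 macrophage marker CPM (middle) and H2-Q10 CPM per 100 hepatocyte marker CPM (right), all axes from 0. HACY bars are higher on the left, overlap with CCL4 bars in the middle and are lower on the right. The right panel includes albumin, and without it the values are 3.47 and 2.99 in HACY and 2.57 and 2.95 in CCL4.

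Markers of other cell types, not all of which carry class II, gave a mixed picture. For comparison with the counts below, 8.19% of all genes tested were called higher and 3.54% lower. Of 10 dendritic cell markers 7 could be tested and 2 rose, Itgax (1.84, edgeR adjusted p = 0.00980) and Ccr7 (1.15, edgeR adjusted p = 0.0398), with sums of 57.0 and 44.0 CPM in HACY and 21.2 and 25.4 in CCL4. Cd209a was at 0 in all libraries and Xcr1 in 3 of them. None of 9 B cell markers was called, or had an unadjusted p below 0.05, in edgeR, DESeq2 or limma-voom, and their sums were 37.3 and 30.1 CPM in HACY and 30.1 and 31.8 in CCL4. Of 8 sinusoidal endothelial markers 2 rose (Lyve1 and Pecam1) and 1 fell (Clec4g), with sums of 1237 and 940 CPM in HACY and 419 and 692 in CCL4. T and NK cell markers summed to 2.78 and 2.38 CPM in HACY and 0.758 and 0.837 in CCL4, with 6 of 8 under 10 counts in every library. Cd4, the 1 tested, had 2.22 (edgeR adjusted p = 0.0520, unadjusted p = 0.00631), and interferon gamma (Ifng) had 0 counts in all 4. Neutrophil markers summed to 18.3 and 22.9 CPM in HACY and to 20.4 and 197 in CCL4 replicates 1 and 2, and of 6 tested none rose and 1, Cxcr2, fell (-3.34, edgeR adjusted p = 0.0349). Of 7 biliary markers 1 rose (Cftr), with sums of 2937 and 4237 CPM in HACY and 1173 and 2208 in CCL4. Values were positive in 7 of 7 tested dendritic cell, 7 of 8 sinusoidal endothelial and 6 of 9 B cell markers. They were positive in 6 of 7 biliary and 2 of 6 tested neutrophil markers, against 49.1% of all genes tested. The part of these cells in the changes of the members was not tested.

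Around the members, most listed proteases and regulators of the lysosomal route into class II were higher, and genes of the class II promoter complex were not. Whether the route itself differed was not tested. Of 8 class II route proteases and regulators 6 rose and none fell, with a median log2 fold change of 0.95. Ctss, the protease that degrades the invariant chain in antigen-presenting cells, had 594 and 450 CPM in HACY and 91.0 and 105 in CCL4 (2.41, SE 0.17, edgeR adjusted p = 9.52e-04). Per 100 macrophage marker CPM, Ctss had 14.4 and 15.3 in HACY and 7.83 and 6.67 in CCL4. Per CPM of Adgre1 alone it had 4.55 and 4.81 in HACY and 4.80 and 4.65 in CCL4, where the groups overlapped, so the order depended on which markers were taken. Ctsl (1.01), Ctsh (0.99) and Lgmn (1.21), further endosomal proteases, rose too. None of 7 genes of that complex was called by edgeR or limma-voom, with a median of -0.46, although 4 had an unadjusted p below 0.05 in edgeR and DESeq2 called 2, Rfx5 and Nfyb. Rfx5, the X box binding subunit, had -0.98 (edgeR adjusted p = 0.0631) and Nfyb -0.61 (edgeR adjusted p = 0.0703).

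In interferon gamma signalling, the kinase Jak2 (0.51, edgeR adjusted p = 0.0385) and the receptor chain Ifngr1 (0.63, edgeR adjusted p = 0.0478) rose. Irf1, an activator of class I and immunoproteasome genes, had -0.10 (edgeR adjusted p = 0.747); it was named after its value was seen. Of 10 partners in class I loading and peptide trimming only Pdia3, the disulfide isomerase of the loading complex, was called (0.69, SE 0.12, edgeR adjusted p = 0.0135). The chaperone Calr had 0.57 (edgeR adjusted p = 0.0563). Of all genes tested 8.19% were called higher, a share near that of these 10 partners. Among 9 class I-like genes outside the H2 complex Azgp1 (0.99) and Cd1d1, which presents lipids to NKT cells (0.88), rose. Of 7 tested costimulation and checkpoint ligands 3 rose: Cd80 (1.19), Cd86 (1.19) and Cd274, or PD-L1 (1.00, SE 0.22, edgeR adjusted p = 0.0298).

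The single lower member was H2-T-ps, annotated as an unprocessed pseudogene (chromosome 17, 36109234 to 36111658, minus strand). It had 8.24 and 10.8 CPM in HACY and 20.7 and 23.9 in CCL4, which was 2.34-fold lower in HACY (log2 -1.23, SE 0.22, edgeR adjusted p = 0.0170). Both HACY libraries were below both CCL4 libraries. Dropping HACY replicate 1 ended the call (-1.05, adjusted p = 0.105). H2-T-ps shares 29.4% of its words with other genes, mostly H2-T23, which rose, and its exons overlap Gm7030 on the same strand and BC023719 on the opposite strand. H2-Ke6, a hydroxysteroid dehydrogenase gene named for its place in the complex, had 15.1 and 16.3 CPM in HACY and 17.1 and 15.8 in CCL4 (-0.06). It shares 96.3% of its words with Gm20427, which overlaps its exons on the same strand, so its counts are hard to assign. In all, 30 of the 40 members lie on chromosome 17, between 33915899 and 37483552, and exons of 15 members overlap a gene on the opposite strand.

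Leaving out single libraries changed how many members were called higher. There were 6 without HACY replicate 1 and 9 without HACY replicate 2, against 18 without CCL4 replicate 1 and 17 without CCL4 replicate 2. The background fell as well, from 1100 higher genes to 530 and 672 without HACY replicate 1 and HACY replicate 2, and it was 890 and 1840 without CCL4 replicate 1 and CCL4 replicate 2. Of the 19 called members 5 kept their call in all 4 of these fits: Cd74, Erap1, H2-Aa, H2-Q10 and H2-T24. No called member changed sign in any setting run.

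**Figure D5:**
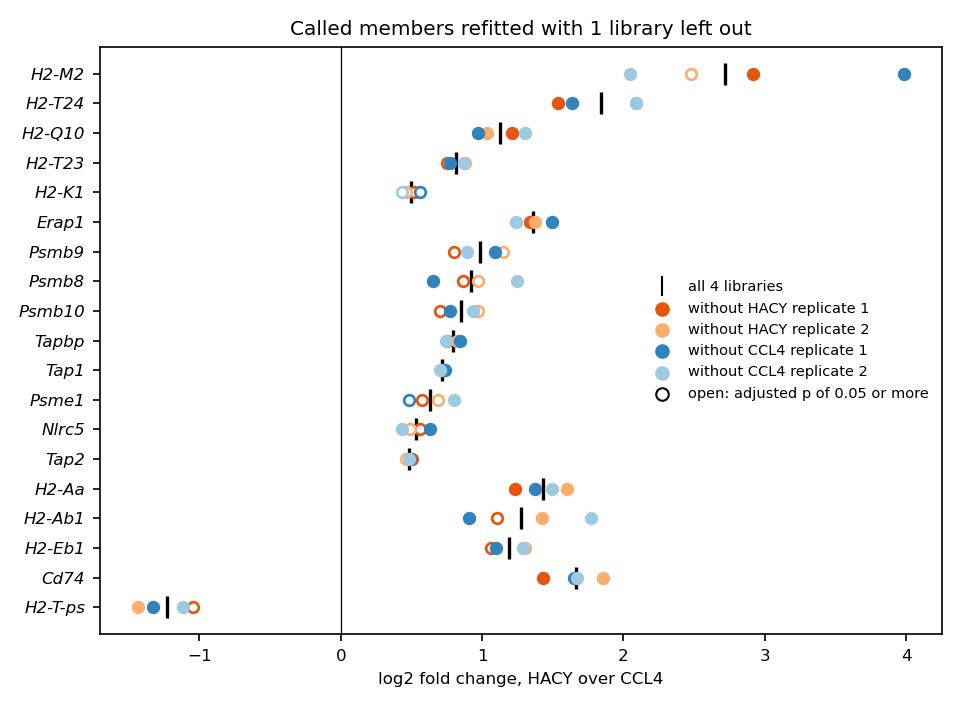
Log2 fold change of the 19 called members with all 4 libraries (black mark) and with each library left out in turn (coloured points; open where the edgeR adjusted p was 0.05 or more). H2-M2 spreads from 2.05 to 3.98, H2-Ab1 from 0.91 to 1.77, and every point keeps the sign of its gene.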

How the data were processed

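Per the labels' protocols, stranded mRNA libraries of CD24+ liver cells, sorted by MACS, were sequenced from both ends. The deposited tables give a raw read count and an FPKM per gene symbol, per the file headers. FPKM as deposited is by definition relative to transcript length and library size; how the authors estimated it is not stated. Counts summed to 18467299 to 19314219 per library. Trimmomatic, HISAT2, Cufflinks, HTSeq and DESeq and the build mm10 are named, per the submitters' processing notes. For the annotation and the strand setting nothing is given in these sources.

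Counts were tested with edgeR 4.0.16 (R 4.3.3): filterByExpr (minimum count 10, minimum total 15), TMM scaling, robust quasi-likelihood fit with treatment as the only term, two-sided, Benjamini-Hochberg adjustment over 13428 genes, threshold 0.05. Standard errors are the log2 fold change over the square root of F, an approximation. Alternatives used limma 3.58.1, DESeq2 1.42.0, other scalings and filters, a replicate block and left-out libraries. On log2(FPKM + 1), genes with an FPKM of at least 1 in 2 libraries were tested. Raw counts of replicates differed beyond sampling noise (chi-square per degree of freedom 19.0 for HACY and 34.0 for CCL4). Locations and 50-base word sharing used GENCODE M21 (GRCm38), and promoters RefSeq (GRCm38.p6). Members and lists were chosen with earlier results of these data known. Any member could be named; other lists were given by counts and up to 4 genes with the smallest p, apart from markers at 0 and Irf1. A count of 0 allows up to 3 counts; this covers counting error only. A result on the interferon gamma signalling list, and with it the list's count, is not reported here.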

Additional observations from a re-analysis of the deposited data

How the results depend on the processing

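Of 504 refits of single members (40 genes, 13 settings, fewer where a gene was filtered out), 437 kept direction and side of the threshold, 47 in 14 genes lost a call, 12 in 5 genes gained one and 8 in 6 genes, none of them called, turned sign. Those were Ciita (0.51 without HACY replicate 2, 0.13 without CCL4 replicate 2, range -1.18 to 0.51 with 1 library left out), H2-Eb2 (0.10 without HACY replicate 2, range -1.26 to 0.10), H2-Q6 (0.25 without CCL4 replicate 1, range -0.30 to 0.25), H2-Ke6 (0.16 on FPKM), H2-M3 (-0.058 by library size, -0.043 on FPKM) and H2-T22 (-0.033 by library size). By library size alone the median of all genes shifted from -0.01 to -0.18, 14 members were higher and 1 lower, and 856 genes were higher and 1355 lower over the whole table. Genes lower numbered 738 in DESeq2, and 670 were higher and 664 lower on FPKM. With 1 library left out, 530 to 1840 genes were higher and 99 to 1207 lower, and 6 to 18 members were higher and 0 to 1 lower. The 0 was edgeR without HACY replicate 1, where H2-T-ps had -1.05 and was the 1 member lower at an unadjusted p below 0.05. Left-out fits leave a group with 1 library, which is assumed to vary like the others. The class II to class I difference and the immunoproteasome ratios kept their direction throughout. Replicate numbers do not pair samples by the labels, and the replicate differences of the 2 groups correlated at r = -0.0989 across genes, so the block shares only a number. With the replicate block 15 members were higher and 1 lower, and 893 genes higher and 331 lower. The block ended the calls of H2-Ab1, H2-M2, Nlrc5 and Tap2 and added that of B2m (0.84, adjusted p = 0.0341). Ciita, H2-Oa, H2-Ob, H2-Eb2 and H2-DMb2 had at most 37 counts in a library.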
